A study of Homo sapiens with 62 samples.

Results

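The 10 genes described here are the G1 cyclins CCND1, CCND2, CCND3, CCNE1 and CCNE2, the cyclin-dependent kinases CDK4 and CDK6, and the CDK inhibitors CDKN1A, CDKN1B and CDKN2B. They were chosen by name, with no measured value in the rule, and all 10 are listed among the 29794 genes of the count tables. New and total RNA were measured by SLAM-seq in AsPC-1, a classical pancreatic cancer cell line, and T3M-4, a basal-like one. In this method cells take up 4-thiouridine shortly before harvest, and reads of RNA made in that window carry T>C conversions. Every library came from cells of 1 genotype, FKBP12-F36V-FLAG-KLF5_sgEndogenousKLF5, in which the cell's own KLF5 gene was targeted by a guide and replaced by a copy fused to a degradable tag. KLF5 is a zinc finger transcription factor of the Krüppel-like family.

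The treatments were dTAG (dTAGv-1, which recruits the tagged KLF5 to an E3 ligase for degradation) against NEG (dTAGv-1-NEG, the analogue that does not), CB-6644 (an inhibitor of the RUVBL1/2 ATPases) against DMSO, and NVP-2 (an inhibitor of the elongation kinase CDK9) against the same DMSO libraries. For KLF5 degradation AsPC-1 was sampled at 4 h by 10 libraries per arm. These AsPC-1 libraries were taken as 3 experiments by the first digit of the replicate number, which the sample titles do not call an experiment. The inhibitors were compared in this line over 5 libraries each of DMSO and CB-6644 and 4 of NVP-2 after 4 h, and over 4 each of DMSO and CB-6644 after 12 h. Each of the 5 T3M-4 groups, all at 4 h, held 4 libraries. Controls carry the tagged copy too, its level against that of unmodified cells is not measured here, and KLF5 protein is not measured, so the counts hold no check of its degradation. The labels do not say that libraries of 1 experiment came from separate cultures, so the p-values measure the spread between libraries, part of which may be technical. The study's legends differ on this. One calls its SLAM-seq representative of 3 biological replicates in AsPC-1 and 2 in T3M-4, fewer than the libraries. Another gives 2 biological replicates per condition, and 3 and 2 independent experiments in these lines. RNA was taken from whole cultures, in which fewer cells of a type and less RNA per cell cannot be told apart.

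Progression from G1 into S phase is driven by D-type cyclins bound to CDK4 or CDK6 and by E-type cyclins bound to CDK2, which phosphorylate the RB proteins and release E2F factors. The INK4 inhibitor p15 (CDKN2B) binds CDK4 and CDK6, while the CIP/KIP inhibitors p21 (CDKN1A) and p27 (CDKN1B) bind cyclin-CDK complexes. CDKN1A is a well-known target of p53, and CCND1 of mitogen signalling through the RAS pathway, which is commonly mutated in pancreatic cancer.

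Without the NVP-2 libraries, an AsPC-1 library held 8296433 to 18311982 T>C reads and a T3M-4 library 13562612 to 27982537. The NVP-2 libraries held 2240998 to 3517345 and 3714015 to 4982006. Levels are given as CPM, the usual depth-scaled count, taken over the T>C reads or over all reads of a library, scaled by the trimmed mean of M-values (TMM) within a line, and the labelled share is the percentage of a gene's reads that carry T>C. The all-reads column of AsPC-1 dTAG library 3.1 is identical to the T>C column of a DMSO library, so that library enters no all-reads or share value. The 41 other AsPC-1 libraries were cut by clustering into 3 sets, a number that was fixed and not found. Set A held 16, B 17 and C 8 libraries, and the sets cross the treatments. Sets A and B went with the library number within experiments. For dTAG and NEG, libraries 1.1, 1.2 and 3.2 were of set A and 1.3, 1.4, 3.3 and 3.4 of set B. At 12 h, libraries 1 and 2 were of set A and 3 and 4 of set B. Set C is libraries 2.1 and 2.2 of dTAG, NEG, DMSO 4 h and CB-6644 4 h. CDKN1A moved with them: in controls (NEG and DMSO) its T>C CPM was 74.5 ± 16.0 in set A (SD, n = 8), 201 ± 26.6 in set B (n = 7) and 96.6 ± 23.4 in set C (n = 4). In T3M-4, control CDKN1A was 211 ± 9.50 in batch 1 and 361 ± 37.5 in batch 2 (n = 4 each). Summed epithelial markers ranged over 3396 to 10850 CPM (AsPC-1) and 938 to 2606 (T3M-4), with 5 of 5 genes above 1 CPM in both. Basal-like markers passed 1 CPM for 5 of 5 genes in T3M-4 (summed, 2031 to 5589) and for 1 of 5 in AsPC-1 (10.2 to 57.2), and classical markers for 2 of 5 (32.5 to 91.3) and 4 of 5 (49.2 to 236). Of the fibroblast and leukocyte markers none passed 1 CPM in AsPC-1 (summed, at most 0.867) and 1 of 5, COL1A1, did in T3M-4 (4.61 to 9.22).

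The D cyclins differed between the lines in which of them were transcribed. CPM were scaled within each line, so overlap of CPM between lines is approximate, while the tests scaled both lines together. CCND2 (chr12:4269771-4305353, hg38, plus strand) was a T3M-4 gene: its T>C level in the NEG libraries was 111, 155, 84.5 and 91.9 CPM there, whereas 39 of 42 AsPC-1 libraries held no T>C read of it and 36 of 41 held no read at all. A count of 0 allows up to 3 reads, which is 0.164 to 1.34 T>C CPM in those 39 libraries, counting error only. CCND3 (chr6:41934934-42050357, minus strand) ran from 41.0 to 71.2 CPM with a median of 52.0 in AsPC-1 NEG, and stood at 72.3, 99.6, 69.9 and 58.9 CPM in T3M-4, so that the groups overlapped. Its new RNA was higher in T3M-4 by 0.57 on the log2 scale (SE 0.16, edgeR quasi-likelihood test, adjusted p = 0.00754), a call lost in batch 2 alone (0.41, adjusted p = 0.12) and without T3M-4 NEG library 1.2 (0.40, adjusted p = 0.0562). CCND1 (chr11:69641156-69654474, plus strand) had nearly the same new RNA in both lines, with a difference of -0.01 (SE 0.19, adjusted p = 0.962).

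The kinases and the CIP/KIP inhibitors had more new RNA in T3M-4, and the E cyclins did not pass the test. CDK4 (chr12:57747727-57756013, minus strand) had 93.8, 56.96, 107 and 131 T>C CPM in T3M-4 NEG and 28.5 to 53.9 (median 43.97) in AsPC-1 NEG, without overlap, and was higher by 1.24 (SE 0.18, adjusted p = 2.97e-05). CDK6 (chr7:92604921-92836573, minus strand) had 183, 295, 297 and 301 against 136 to 206 (median 151), and 3 of the 4 T3M-4 libraries lay above all AsPC-1 libraries. It was higher by 0.83 (SE 0.15, adjusted p = 0.000152). CDKN1A (chr6:36676460-36687337, plus strand) was higher by 1.28 (SE 0.36, adjusted p = 0.00682), but within batches the adjusted p was 0.0896 (0.96 in batch 1) and 0.0592 (1.41 in batch 2). CDKN1B (chr12:12685498-12722369, plus strand) had 173, 166, 143 and 159.5 CPM against 73.6 to 124 (median 91.8), without overlap, and was higher by 0.85 (SE 0.13, adjusted p = 3.78e-05). For CCNE1 (chr19:29811991-29824312, plus strand), CCNE2 and CDKN2B (chr9:22002903-22009305, minus strand) the differences were -0.11, -0.42 and 0.02. With DMSO 4 h in place of NEG libraries CCNE2 was called (-0.66, adjusted p = 0.032). In all, 6 of the 10 genes were called in T>C reads, where 56.3% of all genes tested were, and the same 6 in all reads, where 62.2% were. In all reads CDKN1B lost its call in batch 2 alone (0.19, adjusted p = 0.481) and without T3M-4 NEG library 1.1 or 1.2 (adjusted p = 0.0706 and 0.0555). The members' median difference was 0.70 in T>C reads against 0.03 over all genes.

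The share of reads that were new set these transcripts apart from one another in the same order in both lines at its ends. In the DMSO 4 h libraries CDKN1B was labelled in 56.8%, 53.2%, 57.8%, 55.5% and 51.3% of its reads in AsPC-1, and in 78.8%, 81.3%, 78.2% and 78.1% in T3M-4. All 4 T3M-4 libraries lay above all 5 AsPC-1 libraries. It ranked 81st from the highest of 10322 genes in AsPC-1 and 51st of 11691 in T3M-4, where the median gene stood at 15.1% and 17.2%. CCNE2 followed with 50.3% ± 9.73 (SD, n = 5) and 50.5% ± 12.4 (n = 4), a spread that reaches CDKN1B in AsPC-1. Next came CDKN1A with 36.5% and 30.3%, CCNE1 with 34.9% and 32.1%, CDKN2B with 26.3% and 29.5%, and CDK6 with 25.8% and 25.4%, neighbours that overlapped one another. The D cyclins and CDK4 lay lowest: CCND1 at 14.9% and 15.2%, CCND3 at 12.0% and 12.6%, CCND2 at 9.89% in T3M-4, and CDK4 at 8.17% and 8.52%. By limma on the log2 odds of labelling in NEG libraries, CDKN1B was more labelled in T3M-4 by 2.01 (SE 0.19, adjusted p = 2.15e-06). The test called 2 of the 10 genes beside 38.8% of all genes, and the other one, CCND2, rests on AsPC-1 libraries most of which held no read of it.

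**Figure D1:**
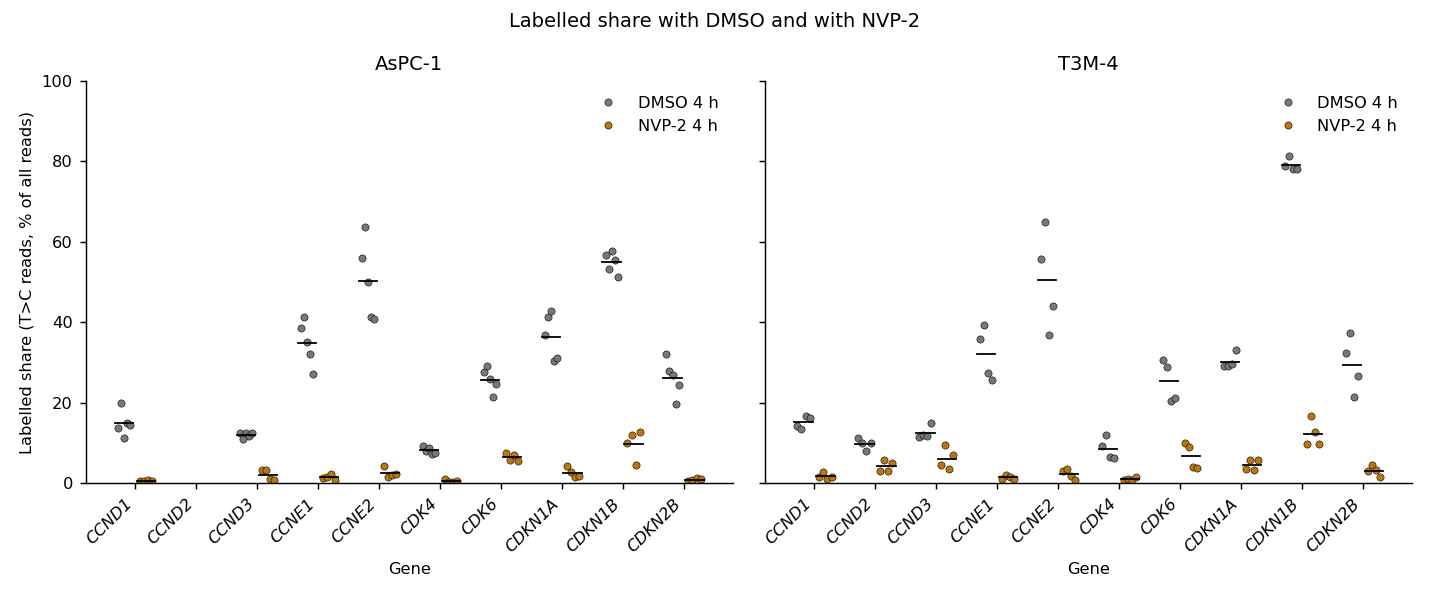
Labelled share (percent of a gene's reads with T>C) of the member genes in each DMSO 4 h and NVP-2 4 h library of AsPC-1 and T3M-4, with lines for the means. With DMSO the mean shares spanned 8.17% (CDK4) to 54.9% (CDKN1B) for AsPC-1 and 8.52% to 79.1% for T3M-4, and with NVP-2 the shares of all plotted genes were lower.

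Degradation of KLF5 in AsPC-1 was followed by less new RNA of 2 of the 10 genes, the inhibitor CDKN1A and the cyclin CCND1. New CDKN1A ran from 53.65 to 259 CPM with a median of 96.4 in the 10 NEG libraries, and from 24.0 to 59.9 with a median of 43.4 in the 10 dTAG libraries. Of the dTAG libraries 8 lay below every NEG library. It fell by 1.60 on the log2 scale (SE 0.28, edgeR, adjusted p = 0.00154). The groups did not overlap within any set: dTAG against NEG was -1.31 in set A, -1.89 in set B and -1.57 in set C as a log2 ratio of means. In the 3 experiments the same ratio was -1.60, -1.57 and -1.65, while with experiment 1 left out the adjusted p was 0.0931. The dTAG and NEG libraries of set C are those of experiment 2, so its -1.57 is the same comparison given again. Batch 1 alone, which is experiments 1 and 2, gave -1.59 (adjusted p = 0.0305), and batch 2 alone, which is experiment 3, -1.66 (adjusted p = 0.287). With counts summed per experiment, 3 against 3, the change was -1.57 with an adjusted p of 0.128, or 0.00741 with the experiment as a block.

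Krüppel-like factors are known to bind GC-rich letters, the GC box GGGCGG and CACCC among them. Both were looked for in the promoters, and CDKN1A is shown because it had the largest dTAG change of the 10 genes. The RefSeq window of CDKN1A (GRCh38.p14, 300 bases around its start site) held 4 GGGCGG and 0 CACCC matches over both strands. The GGGCGG matches are in capitals. The distal pair is apart and the proximal pair shares a base. The stretches lie 116 to 87 bases and 57 to 28 bases before the start site, at chr6:36678598-36678627 and chr6:36678657-36678686 on the plus strand:
CDKN1A, distal: gggccccggggaGGGCGGtcccGGGCGGcg
CDKN1A, proximal: tgaggcgggcccGGGCGGGGCGGttgtata
Both motifs are common, with GGGCGG in 45% and CACCC in 59.9% of 35116 RefSeq promoters of this length. Promoters of 7 of the 10 genes were searched, CCND1 not among them. Each of the 7 held at least 1 GGGCGG in some promoter, 6 of them genes whose new RNA did not pass the dTAG test. A match describes these letters and not binding.

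New CCND1 ran from 128 to 238 CPM in NEG, median 181, and from 91.6 to 167 in dTAG, median 135, with overlapping groups. It fell by 0.52 (SE 0.13, adjusted p = 0.0307). The log2 ratio was -0.48, -0.45 and -0.64 in the 3 experiments. The call was lost in batch 1 alone, the same fit as without experiment 3 (-0.47, adjusted p = 0.133), and in batch 2 alone (-0.66, adjusted p = 0.397). It was also lost without experiment 1 (adjusted p = 0.405) and with counts summed per experiment (adjusted p = 0.68, or 0.0543 with the experiment as a block). Both falls were also seen in total RNA. Among all reads CDKN1A ran from 19.6 to 69.5 CPM in NEG, median 32.2, and from 9.645 to 19.99 in the 9 usable dTAG libraries, median 15.75, and fell by 1.42 (SE 0.23, adjusted p = 0.00279). CCND1 fell by 0.43 (SE 0.08, adjusted p = 0.00915), and 8 of 9 dTAG libraries lay below every NEG library. Both all-reads calls were lost without experiment 1 (adjusted p = 0.286 and 0.531) and without experiment 3 (adjusted p = 0.0606 and 0.0646).

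The other 7 genes tested in AsPC-1 did not pass the test in new RNA, and CCND2 had too few reads to be tested. Their changes ran from -0.27 for CCNE1 (SE 0.12, adjusted p = 0.352) through CDK6 at -0.04, CCND3 at 0.02, CDKN2B at 0.16, CDKN1B at 0.24 and CDK4 at 0.31 to 0.32 for CCNE2 (SE 0.18, adjusted p = 0.521). For CCNE1 the value was -0.53 (adjusted p = 0.0077) when T>C reads were scaled by the library's all reads, a scaling under which the median of all genes moved to -0.22. The count was thus 2 of 9 genes, both lower, beside 2.4% of all genes tested for new RNA, and 2 of 9 beside 0.797% for all reads. The members' median change in new RNA, 0.02, lay close to that of all genes, 0.03.

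The labelled share fell for 6 of 9 genes in AsPC-1, beside 41.1% of all genes, nearly all of them downwards. CCNE1 moved the most, from a median of 28.97% (24.2% to 38.3%) to 19.95% (17.7% to 28.3%, n = 9), a change in log2 odds of -0.70 (SE 0.16, limma, adjusted p = 0.00357). CDKN1A changed by -0.62 (SE 0.16, adjusted p = 0.00798), CCNE2 by -0.45, CCND1 by -0.42, CDKN1B by -0.40 and CDK6 by -0.37, while CDKN2B (-0.31), CCND3 (-0.25) and CDK4 (-0.16) did not pass. The median over all genes was -0.33, and the share of a whole dTAG library was 8.001% on average against 9.299% for NEG. With each library's median subtracted none of the 9 was called (CDKN1A -0.30, adjusted p = 0.503), nor without experiment 1 (CDKN1A -0.66, adjusted p = 0.0886), and 3 were without experiment 2.

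In T3M-4 none of the 10 genes was called by edgeR in new RNA (0.834% of all genes were), 1 had an unadjusted p under 0.05, and DESeq2 called none. That gene was CDKN1A, with 209, 199, 374 and 405 CPM in NEG against 139, 130, 188 and 176 in dTAG. All 4 dTAG libraries lay below all 4 NEG libraries. The difference was -0.92 (SE 0.27, adjusted p = 0.244), or -0.59 (adjusted p = 0.467) in batch 1 and -1.10 (adjusted p = 0.0322) in batch 2. The replicate numbers paired these libraries, and with the number as a block CDKN1A was called at -0.86 (adjusted p = 0.0226). CCND1 had 134, 124, 229 and 220 CPM in NEG against 128, 87.8, 135 and 141 in dTAG, with overlap, a difference of -0.53 (SE 0.26, adjusted p = 0.748). The values of the remaining 8 genes were -0.11 to 0.31. For all reads none of the 10 was called (0.0191% of genes were, 1 member had an unadjusted p under 0.05, and DESeq2 called none), with CDKN1A at -0.60 (SE 0.21, adjusted p = 1.0). For the share limma called none of the 10, 1 with an unadjusted p under 0.05, beside 0.246% of genes.

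A difference between the lines was tested directly. The dTAG effect in T3M-4 minus that in AsPC-1 was 0.71 for CDKN1A (SE 0.48, adjusted p = 0.989) and 0.01 for CCND1 (SE 0.26, adjusted p = 1.0). None of the 9 genes other than CCND2, which had no measurable effect in AsPC-1, was called by edgeR or had an unadjusted p under 0.05, and 0.0426% of all genes were called. An interval of 2 SE around the CDKN1A difference spans 0, so neither a like effect nor one smaller in T3M-4 was resolved by this fit. Like the line fits of the inhibitors, it held line, treatment and their product. It had no term for replicate number, batch or set, and no fit of the difference with such a term was run.

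**Figure D2:**
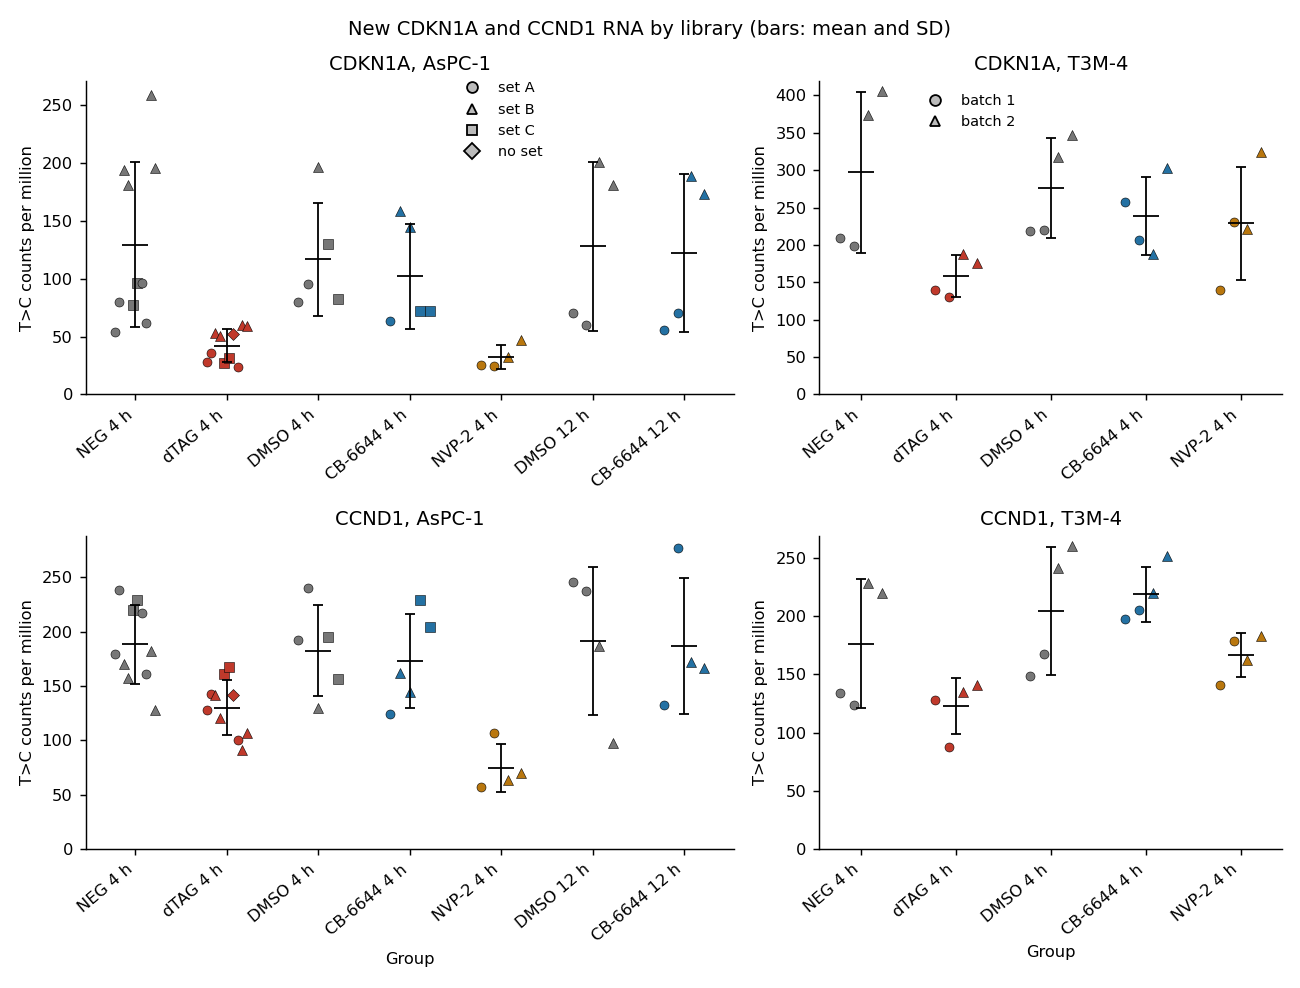
T>C CPM of CDKN1A (top) and CCND1 (bottom) in every library of AsPC-1 (left) and T3M-4 (right) by group, with horizontal bars for the mean and vertical bars for 1 SD. Markers give the library set (AsPC-1; the diamond is dTAG library 3.1, which has none) or batch (T3M-4). The highest CDKN1A levels among AsPC-1 NEG libraries, up to 259, are all from set B, and all 10 dTAG libraries lie at or below 59.9.

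CB-6644 was not followed by a called change of any of the 10 genes at either time or in either line. At 4 h in AsPC-1, the log2 differences in new RNA ran from -0.20 (CDKN2B) to 0.34 (CCND3), with SEs of 0.15 to 0.36. None of 9 was called by edgeR, none had an unadjusted p under 0.05, DESeq2 called none, and 0% of all genes were called in T>C reads and 0% in all reads, where no member had an unadjusted p under 0.05. The arms differed in sets, as CB-6644 library 1.2 was of set B and DMSO library 1.2 of set A. With the set as a block edgeR again called 0 of 9 in T>C reads. Scaled by all reads, new CDKN1A was at -0.36 (edgeR, adjusted p = 0.743), where the median of all genes was -0.19. At 4 h in T3M-4 the differences ran from -0.62 (CDK4, SE 0.32) to 0.16 (CDKN2B, SE 0.42), with 0% of all genes called in T>C reads, 0.0127% in all reads and 0% in the share, and none of the 10 members under an unadjusted p of 0.05 in any of these or called by DESeq2. At 12 h in AsPC-1 they ran from -0.45 (CDK4, SE 0.30) to 0.46 (CDKN2B, SE 0.25), again with none of 9 members under an unadjusted p of 0.05 or called by DESeq2, and with 0% of all genes called in T>C reads, 0% in all reads and 0% in the share. Over all genes, 482, 569 and 473 had an unadjusted p under 0.05 in T>C reads in these comparisons, in that order, and DESeq2 called 0, 5 and 20.

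CDKN1A came nearest to a call, in the share at 4 h in AsPC-1. It was labelled in 28.2%, 25.5%, 27.8%, 21.5% and 20.4% of its reads with CB-6644 and in 36.8%, 41.3%, 42.9%, 30.3% and 31.0% with DMSO. The groups did not overlap. The change in log2 odds was -0.81 (SE 0.19, limma, adjusted p = 0.0535), where 2.09% of all genes were called and 0 of the 9 members, 3 of them with an unadjusted p under 0.05. It was called with a pseudocount of 5 (adjusted p = 0.0472), without DMSO library 2.1 (adjusted p = 0.0408) and without DMSO library 2.2 (adjusted p = 0.0424). With each library's median subtracted it was -0.55 (adjusted p = 0.451), the median over all genes being -0.27. At 12 h the shares of CDKN1A were 28.4%, 31.5%, 28.2% and 26.4% against 20.7%, 27.6%, 30.2% and 29.65%, which overlap. In T3M-4 they were 29.8%, 28.97%, 30.6% and 28.0% against 29.1%, 29.2%, 29.6% and 33.25%, which overlap as well. No difference between lines in the CB-6644 effect on new RNA was called by edgeR for the 9 genes other than CCND2 (SEs of 0.22 to 0.54, no gene under an unadjusted p of 0.05), and 0% of all genes were called.

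**Figure D3:**
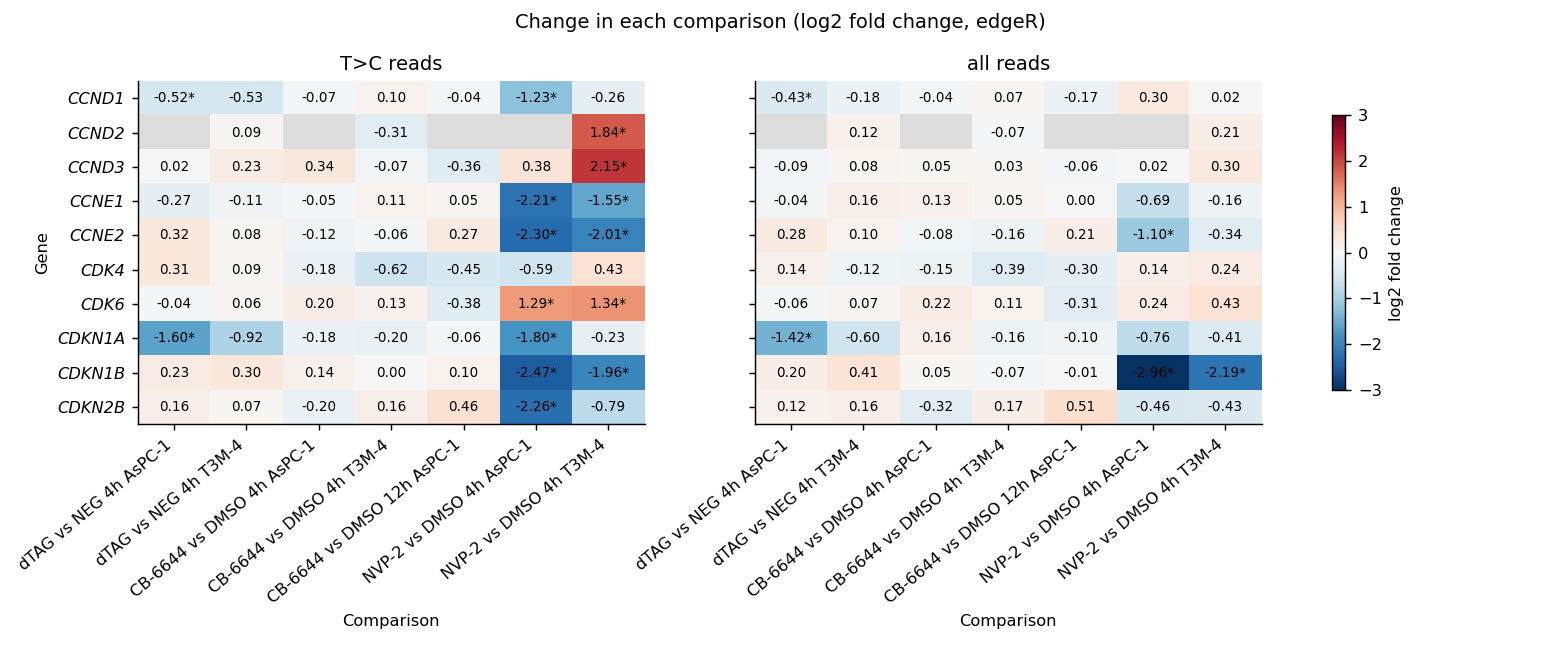
Log2 change of each member gene (rows) in each treatment contrast (columns) from the edgeR fits, for T>C reads on the left and all reads on the right, with colour and printed value for the change, an asterisk for a call and grey where CCND2 was not tested. In T>C reads the calls stand in the dTAG contrast of AsPC-1 (CDKN1A -1.60, CCND1 -0.52) and in both NVP-2 contrasts, where the values above 0 turn below 0 when T>C reads are scaled by all reads (CDK6 -1.96 in AsPC-1 and -1.57 in T3M-4, CCND2 -1.19 and CCND3 -0.84 in T3M-4, CDK4 -2.81 in T3M-4 and CCND3 -2.80 in AsPC-1).

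NVP-2 changed the make-up of new RNA of most of the 10 genes. It left 1.57% of reads with T>C in AsPC-1 and 2.24% in T3M-4, against 10.1% and 12.4% with DMSO, so that a T>C CPM says how a gene stood within the RNA still made. Scaled by all reads in its place, the median change of all genes was -3.26 in AsPC-1 and -3.09 in T3M-4. The NVP-2 libraries of AsPC-1 are all of batch 2 and their DMSO 4 h controls all of batch 1, so batch and treatment cannot be told apart there. Set against the DMSO 12 h libraries, which are of batch 2, edgeR called the same 7 genes. The DMSO 4 h libraries are the same as for CB-6644.

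The inhibitor CDKN1B and the E cyclins fell within the T>C reads in both lines. CDKN1B had 14.5, 19.6, 8.91 and 22.7 CPM with NVP-2 against 77.4, 86.5, 87.5, 114 and 108 with DMSO in AsPC-1, and 26.1, 41.1, 53.4 and 34.8 against 143, 156, 153 and 169 in T3M-4. The groups did not overlap in either line. It fell by 2.47 (SE 0.31, adjusted p = 0.000211) and by 1.96 (SE 0.29, adjusted p = 0.00119). CCNE1 had 5.97, 6.52, 23.9 and 12.0 against 53.3, 62.4, 64.1, 63.1 and 48.7 CPM in AsPC-1, and 6.45, 13.9, 29.5 and 15.7 against 53.5, 37.4, 55.8 and 49.5 in T3M-4. Again no NVP-2 library reached a DMSO library. It fell by 2.21 (SE 0.40, adjusted p = 0.00187) in AsPC-1 and by 1.55 (SE 0.44, adjusted p = 0.0244) in T3M-4, where the call was lost without NVP-2 library 1.2 (adjusted p = 0.0585) or without DMSO library 1.1, 2.1 or 2.2 (adjusted p = 0.0643, 0.0688 and 0.062). CCNE2 fell by 2.30 (SE 0.44, adjusted p = 0.00251) and by 2.01 (SE 0.44, adjusted p = 0.00765). In batch 2 of T3M-4 alone the values were -1.18 for CCNE1 (adjusted p = 0.12) and -2.11 for CCNE2 (adjusted p = 0.0902).

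CDK6 took a larger part of the remaining T>C reads in both lines, and CCND2 and CCND3 in T3M-4. CDK6 had 249, 279, 475 and 371 CPM against 118, 157, 203, 115 and 144 in AsPC-1, and 695.5, 626, 549 and 510 against 205.5, 155, 292 and 317 in T3M-4. No group overlapped. In T>C CPM it was higher by 1.29 (SE 0.25, adjusted p = 0.00272) and 1.34 (SE 0.29, adjusted p = 0.00784), but scaled by all reads it was lower, by -1.96 (adjusted p = 2.88e-05) and -1.57 (adjusted p = 0.00266). CCND2 had 327, 340, 276 and 437 against 116, 119, 66.7 and 96.2 CPM in T3M-4, higher by 1.84 (SE 0.28, adjusted p = 0.00125) in T>C CPM and lower by all reads (-1.19, adjusted p = 0.0173). CCND3 had 197, 388, 298 and 521 against 74.55, 72.5, 82.3 and 93.9 CPM in T3M-4, higher by 2.15 (SE 0.32, adjusted p = 0.00119) and by all reads at -0.84 (adjusted p = 0.0584). In neither did the groups overlap. In AsPC-1, CCND3 was at 0.38 (SE 0.32, adjusted p = 0.401), and -2.80 by all reads.

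CCND1 and the inhibitors CDKN1A and CDKN2B were called in AsPC-1. CCND1 had 57.1, 107, 63.3 and 70.0 CPM against 192, 240, 129, 195 and 156, without overlap, and fell by 1.23 (SE 0.26, adjusted p = 0.00489). CDKN1A had 25.6, 24.2, 31.9 and 46.6 against 79.4, 94.9, 196, 130 and 82.8, also without overlap, and fell by 1.80 (SE 0.34, adjusted p = 0.00228). CDKN2B had 1.28, 1.397, 2.35 and 1.89 against 12.3, 8.75, 6.33, 6.26 and 9.71 CPM and fell by 2.26 (SE 0.48, adjusted p = 0.00461). In T3M-4 the values were -0.26 for CCND1 (adjusted p = 0.517), -0.24 for CDKN1A (adjusted p = 0.612) and -0.79 for CDKN2B (adjusted p = 0.292). CDK4 was at -0.59 (SE 0.48) in AsPC-1 and 0.43 (SE 0.56) in T3M-4, and in batch 2 of T3M-4 it was called at 1.11 (adjusted p = 0.0371), while by all reads it was -3.82 and -2.81. The counts were 7 of 9 genes in AsPC-1 (1 higher, 6 lower) beside 30.5% of all genes, and 6 of 10 in T3M-4 (3 higher, 3 lower) beside 26.7%. The members' median was -1.80 against -0.05 over all genes in AsPC-1, and -0.25 against -0.12 in T3M-4.

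The effect of NVP-2 was called different between the lines for none of the 9 genes other than CCND2 by edgeR, beside 0.851% of all genes, though 4 had an unadjusted p under 0.05. In T3M-4 minus AsPC-1 these were CCND3 at 1.75 (SE 0.46, adjusted p = 0.0793), CDKN1A at 1.54 (SE 0.46, adjusted p = 0.123), CDKN2B at 1.44 (SE 0.66, adjusted p = 0.339) and CCND1 at 0.93 (SE 0.38, adjusted p = 0.266). Without T3M-4 NVP-2 library 1.1, CCND3 was called (1.94, adjusted p = 0.03).

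**Figure D4:**
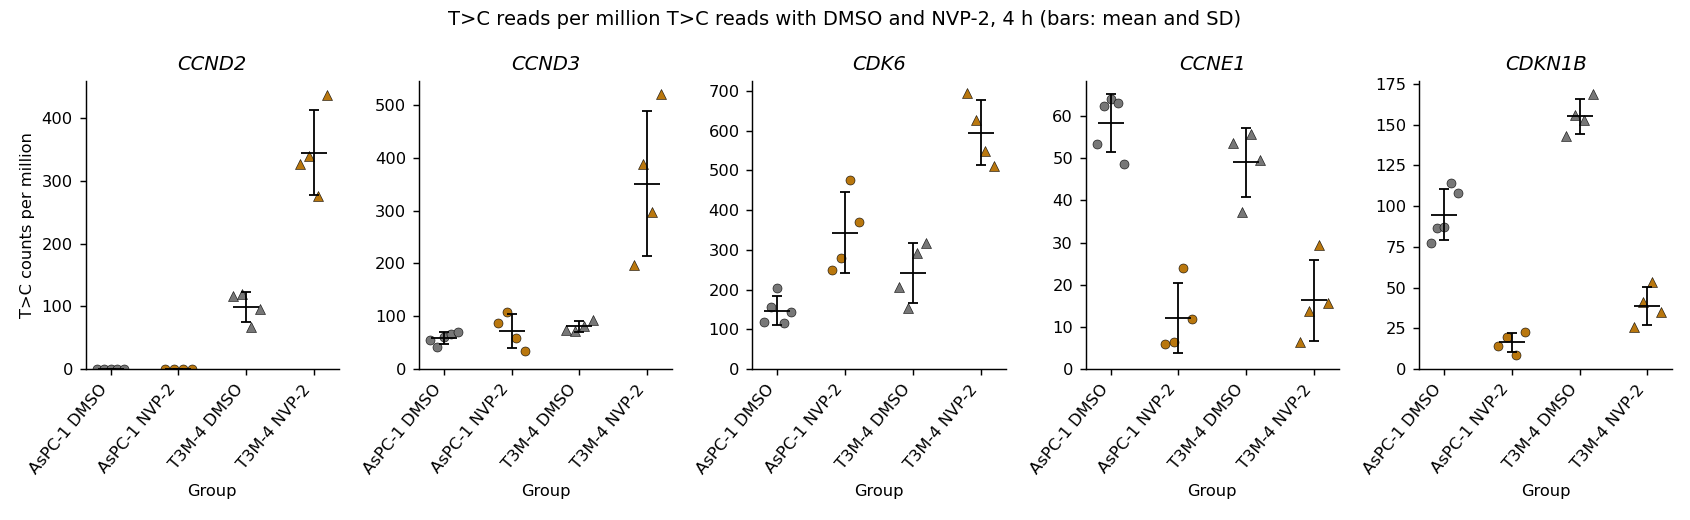
T>C CPM of CCND2, CCND3, CDK6, CCNE1 and CDKN1B in each DMSO 4 h (grey) and NVP-2 4 h (orange) library, circles for AsPC-1 and triangles for T3M-4, with bars for the mean and 1 SD. CDKN1B and CCNE1 lie below DMSO in both lines and CDK6 above it, although scaled by all reads CDK6 was lower with NVP-2 (-1.96 and -1.57), as were CCND2 (-1.19) and CCND3 (-0.84) in T3M-4.

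CDKN1B was called lower in total RNA in both lines. Its all-reads level was 2.26, 1.99, 2.49 and 1.92 CPM with NVP-2 against 14.1, 17.65, 16.1, 18.6 and 19.4 with DMSO in AsPC-1, and 5.44, 6.11, 5.37 and 5.22 against 26.8, 27.5, 22.5 and 24.7 in T3M-4. The change was -2.96 (SE 0.19, adjusted p = 4.2e-05) and -2.19 (SE 0.14, adjusted p = 0.000125), and -2.80 (adjusted p = 0.000454) in AsPC-1 against the DMSO 12 h libraries. CCNE2 was called in AsPC-1 (-1.10, SE 0.30, adjusted p = 0.0385) but not against the DMSO 12 h libraries (-0.87, adjusted p = 0.313), nor when any 1 of 6 libraries was left out, DMSO 1.1, 1.2, 1.3 or 2.2 or NVP-2 1.2 or 2.2 (adjusted p 0.0581 to 0.0992). CDKN1A was at -0.76 (adjusted p = 0.234) and -0.42 (adjusted p = 0.163). The D cyclins, CDK4 and CDK6 ran from 0.02 to 0.43 over both lines, none called. In all 2 of 9 genes were called in AsPC-1, beside 11.8% of all genes, and 1 of 10 in T3M-4, beside 5.16%. Across the members, those with a higher labelled share under DMSO had a lower all-reads change with NVP-2 (Pearson r -0.86 and Spearman rho -0.87 over 9 genes in AsPC-1, r -0.90 and rho -0.73 over 10 in T3M-4), a description over genes that share libraries and the DMSO counts. All reads include the T>C reads, which were fewer with NVP-2. The relation was not computed over all genes, so whether it is particular to the members was not tested.

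The labelled share fell for all 9 genes tested in AsPC-1 and all 10 in T3M-4, as for 95.9% and 93.9% of all genes. CDKN1B went from 51.3% to 57.8% with DMSO to 10.1%, 12.1%, 4.48% and 12.7% with NVP-2 in AsPC-1, and from 78.1% to 81.3% to 9.79%, 16.8%, 12.8% and 9.85% in T3M-4. The steepest changes in log2 odds were those of CCNE2, -5.28 (SE 0.42) and -5.62 (SE 0.67), and the smallest were CDK6 in AsPC-1 (-2.33, SE 0.20) and CCND3 in T3M-4 (-1.23, SE 0.35). The members' median was -4.52 in AsPC-1 and -3.28 in T3M-4, against -3.42 and -3.62 over all genes.

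A further 54 genes of the pathway were taken in 6 lists. With KLF5 degradation 2 of the 51 tested in AsPC-1 passed, beside 2.4% of all genes. Of these 1 rose, E2F7, a repressor of the E2F family (0.61, SE 0.16, adjusted p = 0.0499), and 1 fell, PHLDA3, a p53 target (-1.71, SE 0.43, adjusted p = 0.0335). E2F7 ran from 16.8 to 42.7 CPM in dTAG and from 10.7 to 24.0 in NEG, and PHLDA3 from 0.171 to 3.73 and from 2.50 to 6.70, and the groups overlapped for both. The lists of E2F and DP factors (1 of 10) and p53 targets (1 of 11) held these, and none of 3 RB family genes, 3 other CDK inhibitors, 8 genes of CDK2 and its regulators and 16 E2F-driven replication genes passed. Alternative fits of E2F7 and PHLDA3 are not given. Over all genes of this contrast, 0 passed with counts summed per experiment, and 209 with the experiment as a block as well. In T3M-4 none of 52 passed by edgeR, beside 0.834% of all genes, and with CB-6644 none passed in either line or at either time, beside 0% in each. With NVP-2, 5 rose and 18 fell of 51 in AsPC-1, and 9 rose and 10 fell of 52 in T3M-4, in T>C CPM, beside 30.5% and 26.7% of all genes called. The p53 targets, of which CDKN1A is another, fell in 6 of 11 and 5 of 12 and rose in none, where 2018 of 11498 and 1740 of 12242 genes fell in all, a difference that was not tested. GADD45A, a growth arrest gene of that list, fell by 3.03 (SE 0.40) and by 4.02 (SE 0.50), while CDC45, a replication factor, was higher by 1.92 (SE 0.32) and 2.00 (SE 0.33). Between the lines 19 of 52 were higher and 12 lower in T3M-4, beside 56.3% of all genes called.

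The genes whose new RNA followed CDKN1A most closely over the 42 AsPC-1 libraries were FSCN1, PLEK2 and RHOF (Pearson r of log2 T>C CPM 0.88, 0.87 and 0.86, among 7924 genes), and for CCND1 they were WNT7B, EHD1 and CTBP2 (0.85, 0.84 and 0.81). Over the 20 T3M-4 libraries they were BAIAP2, TRIP10 and MAD1L1 for CDKN1A (0.88, 0.84 and 0.84, among 7953 genes) and BAIAP2, RASSF5 and EZR for CCND1 (0.87, 0.85 and 0.84). These values describe libraries that share treatments, sets and batches.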

How the data were processed

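Newly made and total RNA of 62 SLAM-seq libraries were analysed. The deposited values are unnormalized counts per gene: the authors mapped 3′ end reads to hg38 GENCODE v44 3′UTR exons with slamdunk at default settings and added up a gene's T>C reads, and all its reads, over its 3′UTR exons, without spike-in. The aligner's version and use of strand are not given in the sources used here. Antisense genes overlap the 3′UTRs of CCND1, CCNE2, CDK4 and CDKN2B. CCND3 T>C counts were multiples of 7 in 51 of 62 libraries and CDK6 counts even in all, so their counts and CPM may hold a read more than once, which was not tested, and levels are not compared between genes.

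All genes were fitted with edgeR 4.0.16 (filterByExpr, TMM, quasi-likelihood) in R 4.3.3. The labelled share was fitted with limma 3.58.1 on log2 odds with a pseudocount of 0.5. Fits used only the groups compared. SE is the absolute log2 change over the root of F. Calls are Benjamini-Hochberg adjusted p under 0.05. The edgeR fit of counts and the limma fit of shares were run on simulated counts for dTAG in AsPC-1 and NVP-2 in T3M-4. Both groups had equal depths there, so the low T>C depth of NVP-2 libraries was not simulated. Alternatives were DESeq2 1.42.0, other scalings, no filter, blocks, batches and leaving out libraries. AsPC-1 sets were clustered on genes outside the lists.

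The 10 genes, the 6 pathway lists and the marker lists were chosen with earlier results of these data known. Named pathway genes are at most the 3 of smallest p per direction and contrast, and the most alike genes the 3 of highest correlation among those with a mean of 10 CPM or more. Same-numbered libraries deviated together for dTAG (r 0.26 to 0.54 in AsPC-1, 0.17 to 0.45 in T3M-4), CB-6644 at 4 h in T3M-4 (0.16 to 0.44) and at 12 h (0.33 to 0.65), the check being over genes.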

Additional observations from a re-analysis of the deposited data

Results flagged for a closer look

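Over 113 pairs of a gene and a group of 4 to 10 libraries, 5 held a library whose T>C level lay far from the others, about the 1 in 20 that chance gives. All were of CDK4 or CDK6. CDK4 was low in CB-6644 4 h library 1.1 of AsPC-1, at 26.7 CPM against 43.2 to 49.7 in the other libraries, and high in DMSO 4 h library 1.1, at 103.6 against 23.3 to 39.9. It was also high in dTAG library 3.3 of AsPC-1, at 93.7 against 33.7 to 59.8. CDK6 was low in CB-6644 12 h library 1, at 96.8 against 131 to 136, and in T3M-4 NEG library 1.1, at 182.7 against 295 to 301. Leaving out DMSO or CB-6644 4 h library 1.1 or CB-6644 12 h library 1 turned no call of CDK4 or CDK6, and none of either kinase in dTAG against NEG of T3M-4 turned without NEG library 1.1.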

How the results depend on the processing

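Of the alternative values for single genes, 2829 kept their side of the threshold, those called with the same direction and those not called within 1 SE. Another 87 that were not called moved by 1 SE or more, 53 lost a call, 20 gained one and 14 reversed. The reversals were all of NVP-2. With T>C reads scaled by all reads, AsPC-1 CCND3 was -2.80 and CDK6 -1.96, and T3M-4 CCND2 -1.19, CCND3 -0.84, CDK4 -2.81 and CDK6 -1.57, since the median of all genes was -3.26 and -3.09. With each library's median labelling subtracted, the share change was 0.59 for CCND3 and 1.16 for CDK6 in AsPC-1, and 0.11 for CCND1, 2.13 for CCND2, 2.24 for CCND3, 0.41 for CDK4, 1.13 for CDK6 and 0.28 for CDKN1A in T3M-4.

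The number of members called moved by more than 1.5 times as follows. For dTAG in AsPC-1, the 2 genes called in T>C reads became 1 in batch 1 alone, the same fit as without experiment 3, and 0 in batch 2 alone. They became 0 without experiment 1, 0 with counts summed per experiment and 1 with the experiment as a block as well. The 2 in all reads became 0 without experiment 1 and 0 without experiment 3. The 6 in the share became 0 with the library median subtracted, 0 without experiment 1 and 3 without experiment 2. For dTAG in T3M-4 in T>C reads, 0 became 1 with the replicate block and 1 in batch 2 alone. For the share with CB-6644 at 4 h in AsPC-1, 0 became 1 with a pseudocount of 5, and ran from 0 to 1 when libraries were left out. For all reads with NVP-2, the 2 genes in AsPC-1 became 1 with the replicate block and 1 with DMSO 12 h controls (1 to 2 when libraries were left out), and the 1 in T3M-4 became 2 with the replicate block, where CDKN1A was called (-0.42, adjusted p = 0.0421), and 4 in batch 2 alone. For the share with NVP-2 in T3M-4, 10 became 6 with the library median subtracted. For the share between lines, 2 became 1 in batch 2 alone. For the NVP-2 difference between lines, 0 ran from 0 to 1 when libraries were left out. The cause was not tested. The replicate block changed no other member's call among the paired comparisons.

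Counts over all genes moved more. For dTAG in AsPC-1, 281 genes in T>C reads became 478 with DESeq2, 848 with the replicate block, 941 scaled by all reads, 660 with the set as a block, 976 with set and experiment as a block, 103 and 16 in batches 1 and 2 alone, and 0 with counts summed per experiment, and 111 in all reads became 522 with the replicate block and 416 with the set as a block. In T3M-4, 112 became 340 with DESeq2, 299 with the replicate block and 38 in batch 1 alone, and 3 in all reads became 46 with the block and 70 with DESeq2. With CB-6644, DESeq2 called 5 genes in T3M-4 and 20 at 12 h where edgeR called 0. The replicate block with NVP-2 moved 3506 genes to 2324 in AsPC-1 T>C reads and, in all reads, 1667 to 985 and 807 to 2494. Same-numbered libraries there had r of -0.09 to 0.19 in AsPC-1 and 0.08 to 0.37 in T3M-4. They were not counted as paired in either line, though r was above 0 throughout in T3M-4. NVP-2 libraries had the fewest T>C reads, and CDKN2B and CCNE2 the least precision. Chosen after seeing the data were the summed experiments, the block of set and experiment, the set block and DESeq2 in all reads, the DMSO 12 h controls, and the batches of all reads with NVP-2.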
